A study of Homo sapiens with 12 samples.

Results

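The guanylate binding proteins (GBPs) are large dynamin-like GTPases, and the human genome encodes 7 of them, *GBP1* to *GBP7*. These 7 genes were taken by name from the 45416 genes of an RNA-seq table of U251 cells, an established human glioblastoma line. The table held 12 libraries, 2 for each of 6 conditions. Every culture was transfected for 48 h, either with a control siRNA (siNC) or with 1 of 2 siRNAs against *PD-L1* (siPDL1-1 and siPDL1-2). Each siRNA was followed in cells left unstimulated and in cells given 100 U/ml of interferon gamma (IFNγ) for 24 h. The comparisons address how silencing of *PD-L1*, the ligand of the T cell inhibitory receptor PD-1, changes the transcripts of these cells. No untransfected cells were analysed here, so all groups carry an siRNA.

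IFNγ binds its receptor, activates the kinases JAK1 and JAK2 and switches on primary target genes such as *IRF1*, itself a transcription factor. The *GBP* genes are classical targets of this pathway, driven through gamma-activated sites and, by IRF1, through interferon-stimulated response elements. Their products bind and hydrolyse guanine nucleotides, assemble on intracellular pathogens and damaged membranes, and bring a caspase of the inflammasome pathway to bacteria. In tumor cells their expression is widely read as a sign of interferon exposure.

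The 7 genes lie side by side on chromosome 1 (GRCh38) and span 381.482 kb. In order along the chromosome they are *GBP3* (ENSG00000117226, from 89006679 to 89022894), *GBP1* (ENSG00000117228, 89052319 to 89065230), *GBP2* (ENSG00000162645, 89106132 to 89150456), *GBP7* (ENSG00000213512, 89131742 to 89176009), *GBP4* (ENSG00000162654, 89181144 to 89198942), *GBP5* (ENSG00000154451, 89258950 to 89272804) and *GBP6* (ENSG00000183347, 89364059 to 89388160). The first 6 are on the minus strand and *GBP6* is on the plus strand. *GBP2* and *GBP7* overlap on the same strand, so reads in the shared stretch cannot be assigned to 1 gene by strand. The genes are also close in sequence. The coding sequences of *GBP1* and *GBP3* were 91.6% identical over 1770 aligned bases, and those of *GBP4* and *GBP7* were 85.4% identical over 1874 bases. *GBP1* shared 4.41% of its 50-base words with any other member and *GBP3* shared 3.38%, whereas *GBP5* and *GBP6* shared none (0%). *GBP2*, *GBP7* and *GBP4* shared 0.990%, 0.799% and 0.312%. A small part of the reads of the genes with shared words could thus have been placed on the wrong gene, which weighs most for *GBP7* with its few reads.

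Promoter sequences, from 250 bases before the start of transcription to 50 bases after it, were found for 5 of the 7 genes in RefSeq (GRCh38.p14). They were searched on both strands for TTTCNNTTTC, the core of an interferon-stimulated response element, and for TTCNNNGAA, a strict form of the gamma-activated site. Other forms of these sites were not searched for, so a promoter without a match may still hold one. No promoter sequence was found for *GBP2* and *GBP5*, whose IFNγ responses were also large. A relation between a match and the response was therefore not tested. The 3 promoters with a match are shown. Each is written 5′ to 3′ on the strand of the gene, with the matched letters in capitals. They lie at chr1:89065159-89065458 (*GBP1*), chr1:89022817-89023116 (*GBP3*) and chr1:89198893-89199192 (*GBP4*), all on the minus strand.
GBP1: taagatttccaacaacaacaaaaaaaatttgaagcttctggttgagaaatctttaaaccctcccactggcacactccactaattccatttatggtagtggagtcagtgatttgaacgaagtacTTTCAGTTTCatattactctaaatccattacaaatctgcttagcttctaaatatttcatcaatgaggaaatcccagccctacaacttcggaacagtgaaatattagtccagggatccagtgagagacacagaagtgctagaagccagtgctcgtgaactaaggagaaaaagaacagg
GBP3: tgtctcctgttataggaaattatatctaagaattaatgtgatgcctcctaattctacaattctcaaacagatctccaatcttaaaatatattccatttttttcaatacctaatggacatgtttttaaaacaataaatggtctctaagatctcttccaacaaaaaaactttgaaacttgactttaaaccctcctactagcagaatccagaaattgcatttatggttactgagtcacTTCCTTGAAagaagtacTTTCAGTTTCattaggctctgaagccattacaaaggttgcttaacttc
GBP4: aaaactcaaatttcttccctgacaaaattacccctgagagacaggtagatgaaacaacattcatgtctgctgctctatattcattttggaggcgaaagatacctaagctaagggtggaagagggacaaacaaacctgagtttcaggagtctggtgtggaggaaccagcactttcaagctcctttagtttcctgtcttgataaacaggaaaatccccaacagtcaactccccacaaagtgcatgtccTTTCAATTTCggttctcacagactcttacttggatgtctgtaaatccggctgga

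TTTCNNTTTC was matched once in each of these promoters, as TTTCAGTTTC in *GBP1* and *GBP3* and as TTTCAATTTC in *GBP4*. In *GBP1* the match was 127 to 118 bases before the start (positions -127 to -118), in *GBP4* it spanned the start (-4 to 5), and in *GBP3* it lay just after it (2 to 11). The capitals that come first in the *GBP3* promoter, TTCCTTGAA, were the single match to TTCNNNGAA (-15 to -7). The 2 motifs did not overlap there. The promoters of *GBP6* and *GBP7* held neither sequence. Over all 35116 promoters of the same length, 3.57% held TTTCNNTTTC and 7.66% held TTCNNNGAA. A match in these letters describes the sequence and was not tested as a binding site, and the lack of a match does not show that a site is absent.

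The libraries held between 17101069 and 55657393 reads on genes, and 1 read corresponded to between 0.0187 and 0.0586 CPM, the unit of reads scaled to a common library size. Values are the authors' normalized CPM, and per-gene tests are from limma on log2(CPM + 1). A gene was called when the false discovery rate (FDR) was under 0.01 over all genes tested and the fold change was over 1.5. Of the 10 glioblastoma and astrocyte markers examined, 9 were at 1 CPM or more in every library and *OLIG2* was below 1 CPM in all. All 6 leukocyte markers were below 1 CPM in every library, and their summed level ranged from 0.0979 to 0.899 CPM. The 2 epithelial markers were below 1 CPM in every library as well. Of 3 endothelial markers, *VWF* was above 1 CPM in every library (1.47 to 4.78 CPM) and *CDH5* reached 1.62 CPM. *S100B*, a glioblastoma and astrocyte marker, had a similar range (2.40 to 5.92 CPM). *PD-L1*, listed as *CD274*, had 4.60 and 4.91 CPM with siNC, 2.67 and 2.73 CPM with siPDL1-1, and 3.57 and 3.45 CPM with siPDL1-2 in unstimulated cells. After IFNγ it had 71.2 and 76.0 CPM with siNC, 60.9 and 66.7 CPM with siPDL1-1, and 37.5 and 35.0 CPM with siPDL1-2. Both siRNAs thus left less of the targeted transcript than siNC in each library pair, but in stimulated cells only the lowering with siPDL1-2 was called (log2 fold change -1.001, against -0.20 with siPDL1-1 and limma FDR = 0.0604). In unstimulated cells the lowering with siPDL1-2, from a mean of 4.76 to 3.51 CPM, was under the fold threshold.

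Without IFNγ, 4 of the 7 *GBP* genes were above 1 CPM. *GBP5*, whose product is geranylgeranylated and promotes inflammasome assembly, had 61.4 and 63.7 CPM in the siNC libraries. *GBP2*, which is also geranylgeranylated and with GBP5 restrains the protease furin, had 26.6 and 28.1 CPM. *GBP3*, which is recruited to GBP1 coats, had 16.5 and 15.2 CPM. *GBP1*, the farnesylated member that binds bacterial lipopolysaccharide and starts the GBP coat, had 10.2 and 9.16 CPM. The other 3 genes were close to silent. *GBP4*, which also joins coats begun by GBP1, had 1 and 2 reads in the siNC libraries (0.0490 and 0.0506 CPM), *GBP6* had 1 read in each, and *GBP7* had 0.

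After IFNγ, the same siNC cells had 656 and 688 CPM of *GBP1*, far above every unstimulated library. *GBP2* had 697 and 723 CPM and *GBP3* had 249 and 253 CPM. *GBP5* reached 2705 and 2778 CPM. *GBP4* went from 3 reads in both unstimulated libraries together to 22736 reads, at 221 and 227 CPM. *GBP6* had 0.880 and 0.623 CPM and *GBP7* had 0.0749 and 0.208 CPM, which left both below 1 CPM in all 12 libraries. For *GBP1*, *GBP2*, *GBP3* and *GBP5*, both stimulated siNC libraries lay above both unstimulated ones. The same held for *GBP4* and *GBP6*, but these entered the test only through their stimulated libraries. How many of all genes separate in this way was not counted.

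**Figure D1:**
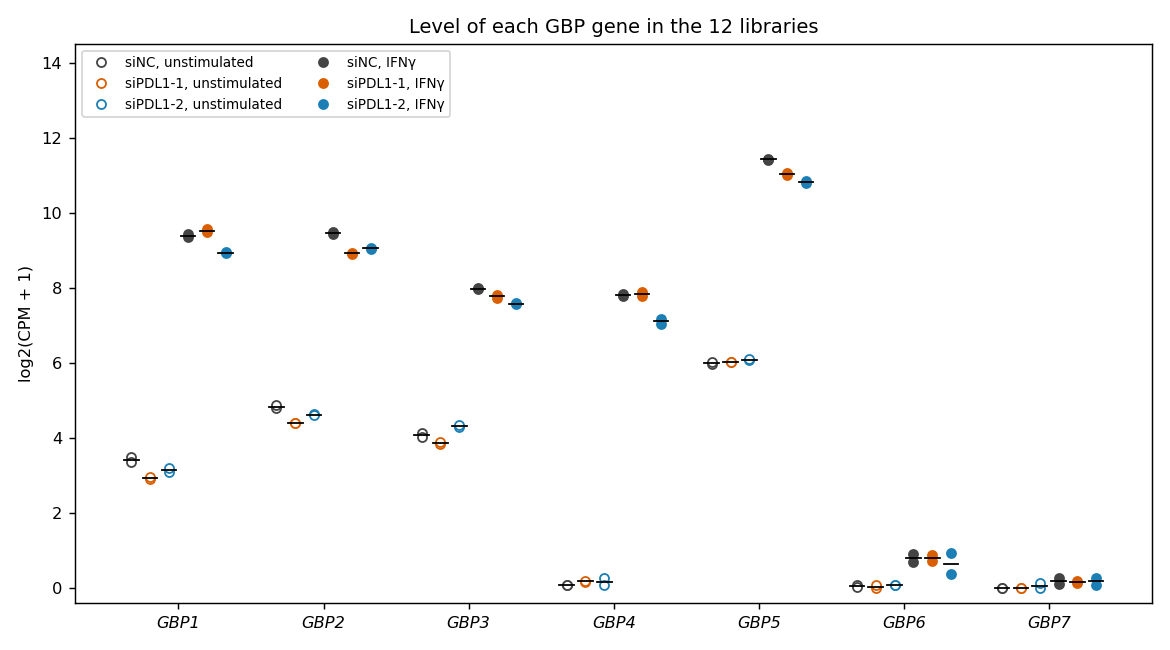
Level of each *GBP* gene in the 12 libraries, as log2(CPM + 1), with 1 point per library, open for unstimulated and filled for IFNγ-stimulated cells, and a line at the mean of the 2 libraries. *GBP5* was highest in every condition, as it was per kilobase, *GBP4* moved from at most 0.192 CPM to at least 131 CPM, and *GBP6* and *GBP7* stayed below 1 CPM.

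IFNγ raised 6 of the 6 tested *GBP* genes in siNC cells, where 6.67% of all 17982 genes tested were called higher. *GBP7* had too few reads to be tested, and *GBP4* and *GBP6* entered the test only through their stimulated libraries. The log2 fold change was 7.74 for *GBP4* (95% CI 7.57 to 7.92), the third in size of all genes tested. It was 5.98 for *GBP1* (5.86 to 6.10), 5.43 for *GBP5* (5.35 to 5.51), 4.65 for *GBP2* (4.56 to 4.74) and 3.90 for *GBP3* (3.78 to 4.02). For *GBP6* it was 0.75 (0.43 to 1.08, limma FDR = 0.00111). The order of the responses was not the order of the levels per length, in which *GBP4* stood below *GBP1*, *GBP2*, *GBP3* and *GBP5* before and after IFNγ.

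The pseudocount of 1 CPM shrinks the fold change of genes that start near 0. From the reads themselves, the ratio of stimulated to unstimulated *GBP4* in siNC cells was 4472 (95% interval 1530 to 21686, counting error only). With siPDL1-1 it was 1749 (951 to 3648) from 10 unstimulated reads, and with siPDL1-2 it was 1010 (549 to 2107), also from 10 reads. These intervals overlap between the backgrounds. *GBP6* had ratios of 22.7 (6.08 to 191), 27.9 (7.25 to 238) and 12.6 (4.47 to 49.0) with siNC, siPDL1-1 and siPDL1-2. *GBP7* had 0 reads in the 4 unstimulated siNC and siPDL1-1 libraries, and 14 reads with siNC and 6 with siPDL1-1 after IFNγ. With a group count of 3 reads in place of 0, its ratio was 2.75 with siNC and 2.72 with siPDL1-1. These 2 ratios make no allowance for counting error and are not lower bounds. In limma without the filter *GBP7* was not called for IFNγ with siNC (limma FDR = 0.0820) or siPDL1-1 (limma FDR = 0.172). With siPDL1-2 there were 3 reads before and 7 after, a ratio of 3.67 (0.839 to 22.02), for which a rise was not detectable at this depth. Whether some of the *GBP7* reads came from *GBP4* or *GBP2* was not tested.

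In siPDL1-1 cells IFNγ again raised 6 of 6 tested members, against 5.58% of all genes called higher. As in siNC cells, *GBP4* and *GBP6* entered the test only through their stimulated libraries. *GBP6* had a log2 fold change of 0.77 (limma FDR = 0.00107), and 0.69 to 0.85 when 1 library was left out. DESeq2 on the reads called 5 members. *GBP1* went from 6.53 and 6.76 CPM to 715 and 751 CPM, a log2 fold change of 6.59 (6.46 to 6.71) and the largest *GBP1* response of the 3 backgrounds. *GBP4* rose from 0.116 and 0.141 CPM to 221 and 238 CPM, close to the siNC values. *GBP5* rose from 63.5 and 64.3 CPM to 2069 and 2125 CPM, a log2 fold change of 5.01. The stimulated *GBP5* libraries were all below those of siNC, whereas the unstimulated ones overlapped with them. *GBP2* rose from 20.2 and 20.1 CPM to 481 and 486 CPM, and *GBP3* from 13.3 and 13.9 CPM to 210 and 225 CPM. Their log2 fold changes were 4.52 and 3.90.

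In siPDL1-2 cells 5 of 6 tested members were called higher, against 3.62% of all genes. Here too *GBP4* and *GBP6* entered the test only through their stimulated libraries. *GBP1* went from 7.48 and 8.18 CPM to 486 and 492 CPM, a log2 fold change of 5.80 (5.67 to 5.92). *GBP5* went from 66.5 and 67.4 CPM to 1833 and 1768 CPM, a log2 fold change of 4.73 and the lowest *GBP5* level among stimulated cells. *GBP4* went from 0.192 and 0.0610 CPM to 144 and 131 CPM, which was also the lowest of the 3 backgrounds. *GBP3* rose from 18.4 and 19.4 CPM, its highest unstimulated values, to 191 and 187 CPM, its lowest stimulated values. *GBP2* rose from 23.9 and 23.3 CPM to 533 and 528 CPM. *GBP6* was not called (log2 fold change 0.57, limma FDR = 0.0114). Its 2 stimulated libraries held 5 and 27 reads and differed more than those of the other backgrounds, and without the first of them the gene was called, at 0.84.

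**Figure D2:**
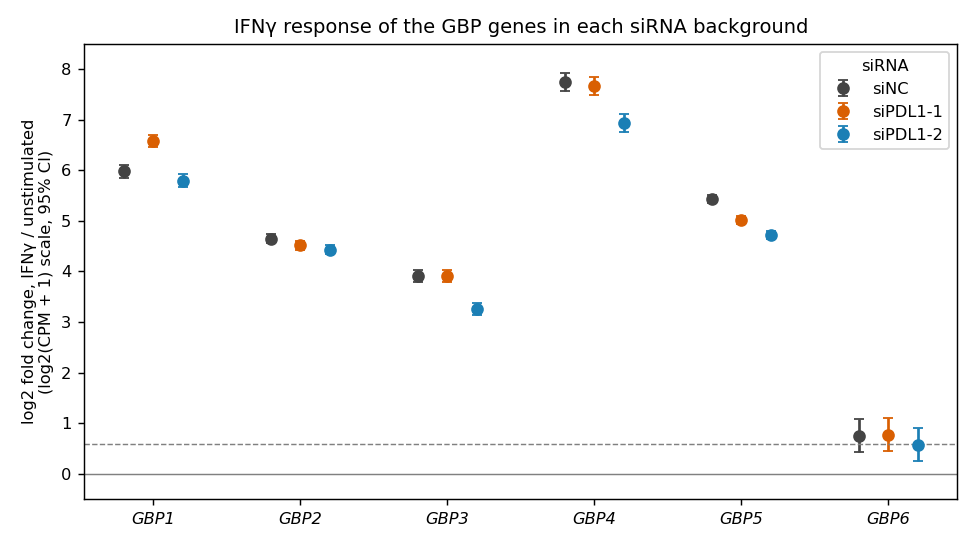
Log2 fold change of the 6 tested *GBP* genes by IFNγ in cells with siNC, siPDL1-1 or siPDL1-2, on the log2(CPM + 1) scale, with 95% confidence intervals from limma and a dashed line at the 1.5-fold threshold. *GBP1* responded most with siPDL1-1 (6.59), whereas *GBP3*, *GBP4* and *GBP5* responded least with siPDL1-2 (3.25, 6.94 and 4.73).

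Per kilobase of transcript, *GBP5* was the highest member in every condition. In unstimulated siNC cells it had 15.7 ± 0.424 CPM per kb, followed by *GBP2* with 6.70 ± 0.260, *GBP3* with 5.22 ± 0.324 and *GBP1* with 3.35 ± 0.251 (mean ± SD, n = 2 libraries). After IFNγ the order changed. *GBP5* had 686 ± 13.0 CPM per kb, *GBP1* 233 ± 7.80, *GBP2* 174 ± 4.54, *GBP3* 82.6 ± 0.977 and *GBP4* 36.5 ± 0.736. *GBP1* thus moved from the fourth to the second place, in all 3 backgrounds, and no neighbouring pair among these 5 genes overlapped. In unstimulated siPDL1-2 cells *GBP3* stood above *GBP2*, with 6.23 ± 0.229 against 5.78 ± 0.0980 CPM per kb. *GBP4* and *GBP6* overlapped in unstimulated siNC and siPDL1-2 cells, as did *GBP6* and *GBP7* in stimulated siPDL1-2 cells. The transcript lengths are those of GENCODE within the gene bounds of the deposited table. With the longer 6812-base GENCODE transcript, *GBP5* had 9.18 CPM per kb before and 402 after IFNγ in siNC cells and was still the highest.

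Summed over the 7 genes, the family took 0.0118% of all reads in unstimulated siNC cells and 0.442% after IFNγ. With siPDL1-1 the share went from 0.0107% to 0.365%, and with siPDL1-2 from 0.0122% to 0.312%. The unstimulated sums were 116 ± 1.03, 104 ± 1.09 and 118 ± 1.44 CPM with siNC, siPDL1-1 and siPDL1-2, and the stimulated sums were 4599 ± 100.2, 3762 ± 91.8 and 3147 ± 56.4 CPM (mean ± SD, n = 2). Stimulated cells of the 3 backgrounds did not overlap, and siPDL1-2 cells, which had the highest unstimulated sum, had the lowest stimulated one. *GBP5* supplied most of this sum of reads, which is not corrected for length, with between 53.4% and 61.3% in every library. *GBP1* supplied 8.37% in unstimulated siNC cells and 14.6% after IFNγ, and with siPDL1-1 its share went from 6.36% to 19.5%. *GBP3* moved the other way, from 13.7% to 5.45% with siNC.

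**Figure D3:**
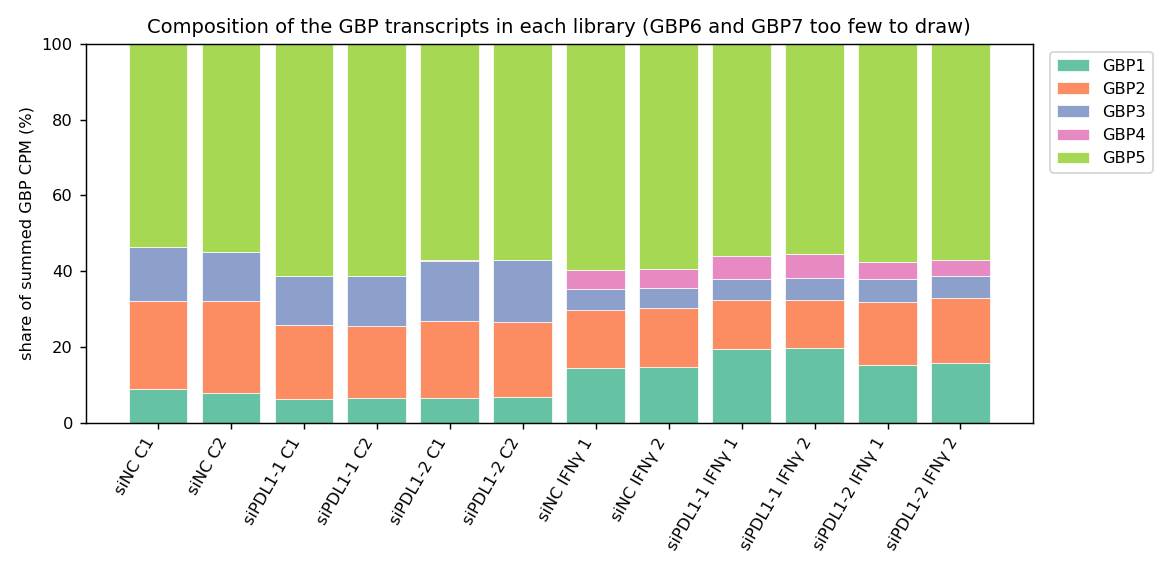
Share of the summed *GBP* CPM held by each of *GBP1* to *GBP5* in the 12 libraries, as stacked bars from 0 to 100%. *GBP5* held between 53.4% and 61.3% of every bar, *GBP4* is visible only in stimulated cells, and *GBP1* reached 19.5% in stimulated siPDL1-1 cells.

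In unstimulated cells no tested member passed both thresholds with either *PD-L1* siRNA. The number of tested members called was 0 of 6 for siPDL1-1 against siNC, where 4.00% of all genes were called, 0 of 6 for siPDL1-2 against siNC, where 6.17% were called, and 0 of 6 for siPDL1-1 against siPDL1-2, where 4.35% were called. At an unadjusted p under 0.05 these limma fits held 3, 4 and 3 members. The share of all genes at that p was not counted, but 5200, 7338 and 6603 of all 17982 genes passed an FDR under 0.05. With both thresholds, the edgeR and DESeq2 tests on the reads also called 0 members in each comparison.

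Smaller differences passed the FDR alone. *GBP1* was lower than with siNC in both siPDL1-1 libraries, with a log2 fold change of -0.48 (95% CI -0.60 to -0.36, limma FDR = 1.74e-05), and in both siPDL1-2 libraries, at -0.27 (-0.40 to -0.15). *GBP2* was lower with siPDL1-1, at -0.43 (-0.52 to -0.33), and with siPDL1-2, at -0.20 (-0.30 to -0.11). For these 2 genes the 3 backgrounds did not overlap, with siNC highest and siPDL1-1 lowest. *GBP3* differed in direction. It was higher with siPDL1-2, at 0.24 (0.12 to 0.36, limma FDR = 0.00291), whereas siPDL1-1 gave -0.21 (limma FDR = 0.0115). Between the siRNAs, *GBP3* was lower with siPDL1-1 than with siPDL1-2 by -0.45 (-0.57 to -0.33). *GBP5* stayed near its siNC level, at 1.02 times the siNC mean with siPDL1-1 and 1.07 times with siPDL1-2. *GBP4* and *GBP6* rested on at most 8 reads per library and differences in them were not detectable at this depth.

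After IFNγ, siPDL1-2 cells had lower levels of the 5 abundant members than siNC cells, and 2 of the 6 tested members passed both thresholds, where 2.91% of 17148 genes were called. *GBP4* fell to 0.614 times the siNC mean, a log2 fold change of -0.70 (95% CI -0.84 to -0.56, limma FDR = 0.000100). *GBP5* fell to 0.657 times, a log2 fold change of -0.61 (-0.71 to -0.50, limma FDR = 3.97e-05). *GBP5* was close to the fold threshold. It was not called without the second stimulated siPDL1-2 library (-0.58) or when the reads were scaled by the plain library total (-0.56). Over all genes the number called fell from 499 to 172 without the first stimulated siPDL1-2 library and to 143 without the second. *GBP1*, *GBP2* and *GBP3* had log2 fold changes of -0.46, -0.42 and -0.41, all with FDR under 0.01 and below the fold threshold. In these 5 genes both siPDL1-2 libraries lay below both siNC libraries.

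With siPDL1-1 the stimulated members did not move together. None (0 of 6) was called against siNC, where 5.52% of all genes were called. At an unadjusted p under 0.05 the limma fit held 4 members, and edgeR and DESeq2 called 0 with both thresholds. The share of all genes at that p was not counted, but 4802 of all 17148 genes passed an FDR under 0.05. *GBP2* was 0.681 times the siNC mean, a log2 fold change of -0.55 (-0.66 to -0.45, limma FDR = 2.11e-05), and *GBP5* was 0.765 times, at -0.39 (-0.49 to -0.28). In both genes all siPDL1-1 libraries lay below all siNC libraries. *GBP1* had a log2 fold change of 0.13 (0.012 to 0.24, limma FDR = 0.0954), with both siPDL1-1 libraries above both siNC libraries. *GBP4* had 0.033 (-0.11 to 0.18), an interval within the fold threshold on both sides.

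The siRNAs differed from each other in *GBP4* and, at the border of the threshold, in *GBP1*. Of 6 tested members, 1 was called between stimulated siPDL1-1 and siPDL1-2 cells, against 2.11% of all genes. *GBP4* was higher with siPDL1-1 by 0.74 (0.59 to 0.88, limma FDR = 3.58e-05). *GBP1* was higher by 0.58 (0.47 to 0.70, limma FDR = 4.13e-05), a fold change of 1.499 that fell just short of the threshold of 1.5. *GBP2* was the only one of the 5 abundant members lower with siPDL1-1 than with siPDL1-2, at -0.13 (-0.24 to -0.025, limma FDR = 0.111). *GBP3* and *GBP5* had 0.20 and 0.22, and neither passed. Without the first stimulated siPDL1-1 library, or without the second stimulated siPDL1-2 library, *GBP1* was called as well and the count was 2.

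**Figure D4:**
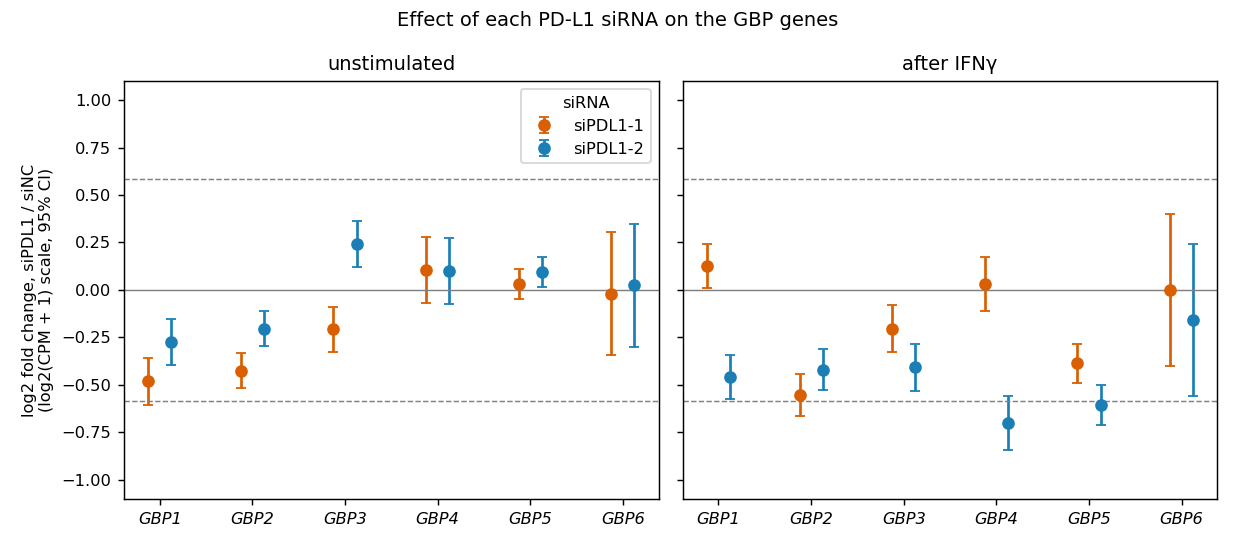
Log2 fold change of the 6 tested *GBP* genes by siPDL1-1 and siPDL1-2 against siNC in unstimulated (left) and IFNγ-stimulated cells (right), on the log2(CPM + 1) scale, with 95% confidence intervals from limma and dashed lines at 1.5-fold in each direction. Only *GBP4* and *GBP5* with siPDL1-2 after IFNγ lie past the lines, at -0.70 and -0.61.

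Whether an siRNA changed the response to IFNγ was tested as the difference between 2 responses in the fit of all 12 libraries. For siPDL1-1 against siNC, 1 of 6 tested members was called, with 0.968% of all genes called. The response of *GBP1* was larger with siPDL1-1 by 0.61 (0.43 to 0.78, limma FDR = 0.000293), which combines its lower level before IFNγ with its slightly higher level after it. *GBP5* had -0.42 (-0.53 to -0.30, limma FDR = 0.000157), below the fold threshold. The call of *GBP1* was sensitive to single libraries. Without the first unstimulated siNC library, the first stimulated siNC library or the second stimulated siPDL1-1 library, the difference was 0.54, 0.57 and 0.57, and 0 members were called.

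For siPDL1-2 against siNC, 3 of 6 tested members were called, all with a smaller response, and 7.62% of all genes were called in either direction. *GBP5* had -0.70 (-0.82 to -0.59, limma FDR = 4.66e-06), *GBP3* had -0.65 (-0.82 to -0.48) and *GBP4* had -0.80 (-1.05 to -0.55). *GBP3* combined a higher unstimulated level with a lower stimulated one. The value of *GBP4* depends on how reads near 0 are treated, since edgeR on the reads gave -2.07 (FDR = 0.0556) and DESeq2 gave -2.09 (FDR = 0.0768), while the FDR over all alternatives ranged from 0.000102 to 0.0768. *GBP1* and *GBP2* had -0.18 and -0.22 and were not called.

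Between the siRNAs, the response of 3 of 6 tested members differed past both thresholds, where 4.87% of all genes were called. *GBP1* responded more with siPDL1-1 than with siPDL1-2 by 0.79 (0.62 to 0.96, limma FDR = 1.35e-05), *GBP3* by 0.65 (0.48 to 0.82) and *GBP4* by 0.73 (0.48 to 0.98). *GBP5* differed by 0.29 in the same direction (limma FDR = 0.00154), under the fold threshold, and *GBP2* by 0.087 (-0.042 to 0.22). The *GBP4* call was lost with edgeR (0.79, FDR = 0.401) and DESeq2 (0.78, FDR = 0.408) on the reads and in limma with a pseudocount of 0.1 (0.66, FDR = 0.117). These comparisons share the siNC or the siRNA libraries and are not independent of each other.

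The signal path to the *GBP* promoters was followed in 13 genes, of which 12 could be tested and *IRF8* was at or below 0.0567 CPM. In siNC cells IFNγ raised 8 of the 12, against 6.67% of all genes, and lowered 0, with a median log2 fold change of 1.25 where the median of all genes was 0.0012. *IRF1*, the transcription factor induced first, rose by 4.85 and the feedback inhibitor *SOCS1* by 2.61. The receptor genes *IFNGR1* and *IFNGR2* and the kinase *JAK1* were not called, at 0.17, 0.18 and 0.049. With siPDL1-1 and with siPDL1-2, 8 of the 12 were raised as well, where 5.58% and 3.62% of all genes were called higher.

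**Figure D5:**
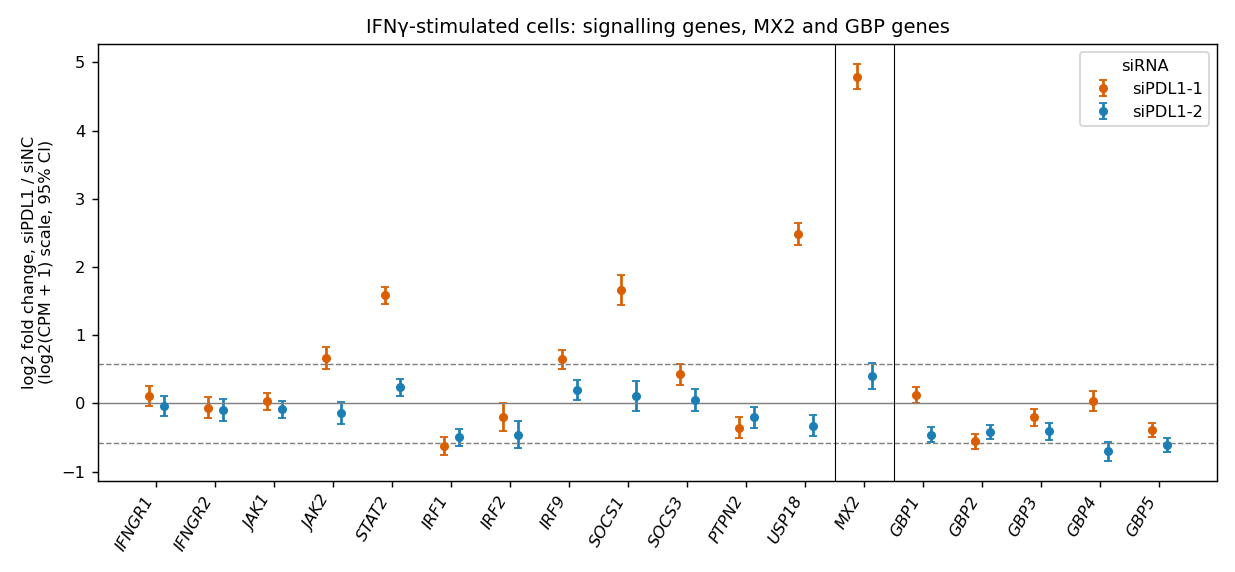
Log2 fold change by siPDL1-1 and siPDL1-2 against siNC in IFNγ-stimulated cells for the 12 tested genes of the IFNγ signal path, for *MX2* and for *GBP1* to *GBP5*, with 95% confidence intervals from limma and dashed lines at 1.5-fold. *MX2* (4.79), *USP18* (2.49), *SOCS1* (1.67) and *STAT2* (1.59) were higher with siPDL1-1, while the *GBP* genes lay between -0.70 and 0.13 with either siRNA.

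In stimulated cells siPDL1-1 raised 5 of these 12 genes against siNC and lowered 1, where 5.52% of all genes were called in either direction. *USP18*, an inhibitor of type I interferon signalling, rose from 20.03 to 117 CPM on average, a log2 fold change of 2.49. *SOCS1* rose from 7.66 to 26.5 CPM, at 1.67, and *STAT2*, a transcription factor of type I interferon signalling, from 133 to 403 CPM, at 1.59. The gene that fell was *IRF1*, from 549 and 531 CPM with siNC to 361 and 337 CPM with siPDL1-1, a log2 fold change of -0.63. In the same comparison 0 of 6 tested *GBP* genes were called, which for so few genes is near the share of all genes. *GBP2*, *GBP5* and *GBP3* had log2 fold changes of -0.55, -0.39 and -0.20, and *GBP1* and *GBP4* had 0.13 and 0.033. A relation between these genes and *USP18*, *SOCS1*, *STAT2* or *IRF1* was not tested.

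With siPDL1-2, limma called 0 of the 12 genes in stimulated cells, where 2.91% of all genes were called. Of the 12, *IRF1* had 369 and 396 CPM, a difference of -0.50 on the log2 scale that was under the fold threshold (limma FDR = 0.000382). Its siPDL1-2 libraries lay below the siNC libraries, as did those of *GBP1* to *GBP5*. Its part in the *GBP* levels was not tested.

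Among 11 other interferon-inducible or dynamin-like GTPases, 7 could be tested, and IFNγ raised 1 of them in each background, *MX2*, with a median log2 fold change of 0.21 over the list in siNC cells. Of all genes, 6.67%, 5.58% and 3.62% were called higher with siNC, siPDL1-1 and siPDL1-2. *MX2*, an antiviral GTPase, went from 0.164 to 4.11 CPM with siNC, from 1.21 to 141 CPM with siPDL1-1, and from 0.287 to 5.75 CPM with siPDL1-2 (means of 2 libraries). Its relative *MX1* was at 4.81 and 4.41 CPM before and after IFNγ with siNC and was not called. The atlastins *ATL1*, *ATL2* and *ATL3*, which share the fold of the GBPs and shape the endoplasmic reticulum, and *DNM1L*, which divides mitochondria, were not called for IFNγ in siNC cells.

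GBP1, GBP2 and GBP5 need a lipid anchor to reach membranes. Of 6 prenylation genes, 2 rose with IFNγ in siNC cells, against 6.67% of all genes, with a median of 0.20 over the list. They were *PGGT1B*, the beta subunit of the geranylgeranyl transferase, at 0.69, and *ZMPSTE24*, a protease that trims farnesylated proteins, at 0.59. The value of *ZMPSTE24* was just past the fold threshold. In siPDL1-1 cells *PGGT1B* had 0.51 and *ZMPSTE24* 0.56, which fell short of it, and in siPDL1-2 cells they had -0.34 and -0.18, so that 0 of 6 genes were called in either background, where 5.58% and 3.62% of all genes were called higher. In unstimulated siPDL1-2 cells the same genes were higher than with siNC, *PGGT1B* by 0.75 and *ZMPSTE24* by 1.16.

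Among 14 genes that act with GBPs, 11 could be tested, and IFNγ raised 6 of them in each of the 3 backgrounds, with a median of 0.88 in siNC cells. The share of all genes called higher was 6.67% with siNC, 5.58% with siPDL1-1 and 3.62% with siPDL1-2. *APOL3*, whose product permeabilises bacteria under GBP coats, rose from 0.555 to 70.4 CPM on average in siNC cells, a log2 fold change of 5.59. *CASP1*, a caspase of the inflammasome pathway, and *CASP4*, which GBPs bring to bacteria, rose by 2.67 and 1.54. *PYCARD*, the inflammasome adaptor, was listed at 0 in every library. In stimulated cells 1 of the 11 was called with siPDL1-1, *RNF213* (0.75), and 0 with siPDL1-2, where 5.52% and 2.91% of all genes were called. In unstimulated cells 2 of the 11 were called lower with siPDL1-1 and 1 with siPDL1-2. Of all genes, 4.00% and 6.17% were called in either direction there. *PIM1*, a kinase that holds GBP1 inactive, was lower in unstimulated cells with siPDL1-1, at -0.66, and with siPDL1-2, at -1.03.

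For each of the 5 abundant members, the genes with the most similar profile over the 12 libraries were found among 14928 genes, by the root mean square (RMS) difference in log2(CPM + 1) after each profile was centred on its unstimulated siNC mean. *GBP5* was nearest to *PSMB9*, a subunit of the immunoproteasome, with a difference of 0.21, *CXCL9* (0.21) and *CIITA* (0.23). *GBP2* was nearest to *HLA-DMB* (0.17), *IRF1* (0.19) and *IL18BP* (0.33). *GBP3* was nearest to *HLA-B* (0.23), *HLA-DRB1* (0.24) and *ETV7* (0.24). *GBP1* was nearest to *APOL3* (0.49), *PSMB9* (0.53) and *APOL1* (0.61). *GBP4* was nearest to *CD74* (0.29), *CXCL10* (0.42) and *IDO1* (0.54). In no case was another *GBP* gene among the 3 nearest, and the closest pair within the family was *GBP2* and *GBP3*, with 0.50. These profiles share libraries and are mostly set by the size of the IFNγ response.

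The study's methods describe the libraries as coming from independent experiments, but the labels do not say that the 2 libraries of a condition come from separate cultures, and if they do not, the p-values measure only the spread between these libraries. In these bulk libraries a lower level in all cells cannot be told apart from fewer responding cells. The lncRNA genes that overlap *GBP2*, *GBP4*, *GBP5* and *GBP7* on the other strand had at most 0.300 CPM, and strand was not used in the counting.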

How the data were processed

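RNA-seq of U251 cells in 12 libraries was used, and conditions were taken from the sample labels. Mapping to GRCh38 (Ensembl gene models), counting without regard to strand and normalization were done by the authors in CLC Genomics Workbench. The signal values are the CPM deposited by the authors, 1 column per library. Divided by the value of 1 read, 100% of the entries came out whole (within 0.01 reads), so reads were recovered.

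Genes were filtered on recovered reads with edgeR's filterByExpr (minimum count 10, total 15), and log2(CPM + 1) was tested with limma (trend, robust) and the Benjamini-Hochberg method over all genes. The 6 stimulated libraries were fitted alone for comparisons among them, and all 12 otherwise. Intervals of read ratios cover counting error only. The *GBP* genes and the gene lists were chosen with earlier results of these data known. Named genes are the 7 members, *CD274*, *IRF1*, at most 3 called genes per list and comparison, and the 3 genes with the nearest profile. The result for 1 further gene is not reported here, and it was left out of its list. A few further list genes (*IFNGR1*, *IFNGR2*, *JAK1*, *IRF8*, *MX1*, *ATL1* to *ATL3*, *DNM1L*, *PYCARD*) are named outside that rule and were chosen after their values were seen.

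The alternatives were plain CPM, DESeq2 size factors, a pseudocount of 0.1, no filter, edgeR's quasi-likelihood test, DESeq2's Wald test, a replicate block, leaving out each library, FDR < 0.05 without a fold threshold, and other libraries in the fit. Replicates were not copies of each other (mean chi-square per gene between 1.85 and 7.76, where copies give 0). Models were run in R 4.3.3 (DESeq2 1.42.0, edgeR 4.0.16, limma 3.58.1) and all else in Python 3.11.15 with pandas 2.3.3, scipy 1.17.1, matplotlib 3.10.9 and numpy 2.4.6.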

Additional observations from a re-analysis of the deposited data

Results flagged for a closer look

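Of the 18 tests of whether an siRNA changed a *GBP* gene's response to IFNγ, 7 passed both thresholds in limma, on the log2(CPM + 1) scale with 2 libraries per condition. Of all genes, 0.968% were called for siPDL1-1 against siNC, 7.62% for siPDL1-2 against siNC and 4.87% between the siRNAs. The 18 tests include those of *GBP4* and *GBP6*, which passed the filter only through their stimulated libraries. With siPDL1-1 the response of *GBP1* was larger than with siNC by 0.61. With siPDL1-2 the response of *GBP3* differed from that with siNC by -0.65, that of *GBP4* by -0.80 and that of *GBP5* by -0.70. Between siPDL1-1 and siPDL1-2 the response differed by 0.79 for *GBP1*, 0.65 for *GBP3* and 0.73 for *GBP4*. Of these, the -0.80 of *GBP4* lost its call with edgeR (FDR = 0.0556) and DESeq2 (FDR = 0.0768), and its 0.73 with edgeR, with DESeq2 and with a pseudocount of 0.1. The call of *GBP1* against siNC was lost when any of 3 libraries was left out (0.54 to 0.57). The comparisons share libraries, and no cause was tested.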

How the results depend on the processing

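Of 231 recomputed counts of called members, 217 stayed within 1.5 times the reported count, and of 541 recomputed values of called members, 527 kept their direction and their call and 14 kept only their direction. With FDR < 0.05 and no fold threshold, the count was 3, 4 and 3 in unstimulated cells (siPDL1-1 and siPDL1-2 against siNC, and siPDL1-1 against siPDL1-2), 3, 5 and 4 after IFNγ, and 2 for the dependence of the siPDL1-1 effect on IFNγ. This looser cutoff called 5200, 7338 and 6603 of all 17982 genes in the same comparisons of unstimulated cells. After IFNγ it called 4802, 3757 and 1936 of 17148 genes, and for the dependence of the siPDL1-1 effect 572 of 17982. With plain CPM the count for siPDL1-2 against siNC after IFNγ was 1. Leaving out 1 library gave 1 to 2 for that comparison, 1 to 2 between the siRNAs after IFNγ, and 0 to 1 for the dependence of the siPDL1-1 effect. *GBP6* lost its IFNγ call without 1 of 2 libraries in siNC cells and 1 of 2 in siPDL1-1 cells (log2 fold change 0.65 to 0.74), and in siPDL1-2 cells it was called with a pseudocount of 0.1 (2.02) and with edgeR (3.49). *GBP4* lost its call for the dependence of the siPDL1-2 effect on IFNγ with edgeR (-2.07) and DESeq2 (-2.09), and for the siRNA difference with edgeR (0.79), DESeq2 (0.78) and a pseudocount of 0.1 (0.66).

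The values that changed sign were those of genes not called in the comparison concerned. *GBP4* between the unstimulated siRNAs was -0.045 with edgeR and -0.035 with DESeq2, and *GBP6* for siPDL1-1 against siNC after IFNγ was -0.037 with edgeR. Leaving out 1 library gave *GBP4* a range of -0.079 to 0.089 between the unstimulated siRNAs and -0.020 to 0.085 for siPDL1-1 against siNC after IFNγ. It gave *GBP3* -0.057 to 0.062 for the dependence of the siPDL1-1 effect on IFNγ. For *GBP6* the ranges were -0.053 to 0.014 (siPDL1-1 against siNC, unstimulated), -0.11 to 0.11 (the same after IFNγ), -0.43 to 0.12 (siPDL1-2 against siNC after IFNγ), -0.12 to 0.43 (between the siRNAs after IFNγ), and -0.087 to 0.13, -0.46 to 0.092 and -0.072 to 0.48 for the dependence of the siPDL1-1 effect, the siPDL1-2 effect and the siRNA difference on IFNγ.

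Same-numbered libraries deviated together (correlation over 0.1) in 3 of 15 pairs of groups (range -0.36 to 0.41). Replicate numbers therefore gave no consistent pairing. A batch shared by libraries with different numbers could give correlations of both signs and was not tested. With the replicate block the counts were 6, 6 and 5 for IFNγ, 0 for each siRNA comparison in unstimulated cells, 0, 2 and 1 after IFNγ, and 1, 3 and 3 for the dependence on IFNγ. With 2 libraries per condition and few reads on *GBP4*, *GBP6* and *GBP7* in unstimulated cells, depth limits every comparison of these 3 genes without IFNγ.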
